A study of Homo sapiens with 4 samples.

Results

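The chromatin remodelers and histone modifiers measured here were the genes whose symbols place them in the KDM, KMT2, KMT5, SETD, EZH, HDAC, CHD, SMARC and ARID families. The symbol rule found 77 genes, read by 119 probes, among the 18348 genes named on the array. A probe counted as detected where its detection p-value, which compares its signal with the array's negative controls, was under 0.05, and probes detected on 2 or more of the 4 arrays were kept. That left 65 of the 77 genes to be tested, with 86 of their probes.

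Many of these proteins act on how tightly DNA is packed. Methyltransferases of the KMT2, SETD1, KMT5 and EZH kinds write methyl marks on histone lysines, the KDM enzymes erase them, and histone deacetylases remove acetyl groups that keep chromatin open. Remodelers of the SWI/SNF, ISWI and CHD kinds spend ATP to slide or evict nucleosomes. In embryonic stem cells some of these proteins help hold developmental genes ready but silent.

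The cells were H9, an established human embryonic stem cell line, grown in medium with serum replacement and basic fibroblast growth factor. The 0 h group (n = 2 arrays) was taken before gamma irradiation and the 24 h group (n = 2) a day after it, in the same line without any other treatment named in the labels. The labels give no radiation dose, the title speaks of a low dose, and no unirradiated sample at 24 h was analysed here, so irradiation and a day in culture cannot be told apart. Nothing in the labels says whether the replicates were separate cultures, so p-values speak for the spread among these arrays alone, and that spread could be technical. All arrays carry 1 slide number, and the groups lay at different positions on it, so a group's position and its time point cannot be told apart.

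Between 19705 and 20443 of 47217 probes were detected on an array. The raw signal at its bright end stood 82 and 83.1 times above that of undetected probes on the 0 h arrays, and 69.7 and 60.4 times above it on the 24 h arrays. All 7 measured markers of pluripotent cells were detected on all 4 arrays. Their summed normalized signal came to 52956 and 54162 on the 0 h arrays and 45930 and 47141 on the 24 h arrays. The markers did not move together: 5 had a log2 change below 0, with DNMT3B lowest at -0.72. The other 2, NANOG (0.31) and POU5F1 (0.22), read above 0. Of 16 fibroblast and mesenchymal markers, 8 or 9 were detected on an array, and their summed signal came to 12889 and 13009 before and 22127 and 21682 after irradiation. COL3A1, LUM, PDGFRA, SNAI2 and TWIST1 of that list were detected on none, while 5 of its 8 tested genes passed as higher. Neurectoderm markers were detected in 6 or 7 of 9 cases, with a summed signal of 10206 and 10239 at 0 h and 12598 and 12897 at 24 h. Of the 6 neurectoderm markers tested, 3 had a log2 change above 0 and 3 below. Mesoderm and endoderm markers were detected in 3 or 4 of 12 cases, with sums of 599 to 661 over all arrays. The bright-end ratios and the pluripotent, mesenchymal and neurectoderm sums moved with the groups as the results below do. The mesoderm and endoderm sums overlapped between the groups. The part of these values in the results below was not tested. In bulk RNA, fewer cells of a type and less RNA per cell cannot be told apart.

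As a set, the remodelers and modifiers read slightly lower a day after irradiation, but no single gene passed the test. Of the 65 tested, 44 (67.7%) had a log2 change below 0, beside 50.6% of all 11030 genes tested, and 21 one above 0, beside 49.4%, and their median log2 change was -0.13 beside -0.01 over all genes. No member passed an adjusted p of 0.05 (limma, Benjamini-Hochberg over all genes, two-sided), where 2.28% of all genes did, 1.35% as higher and 0.925% as lower. The smallest limma adjusted p among the members was 0.0505, beside 0.0447 over all genes. Every gene that passed thus lay between 0.0447 and 0.05, close to the members' smallest value. At an unadjusted p under 0.05 there were 21 members, 5 higher (7.69%, beside 15% of all genes) and 16 lower (24.6%, beside 15.3%), in all 32.3% beside 30.3%. Without 0 h replicate 1 the members' median log2 change was -0.15, beside -0.02 over all genes.

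Both 24 h arrays lay below both 0 h arrays for 29 members (44.6%, beside 31.3% of all genes) and above them for 16 (24.6%, beside 30.3%), so the groups did not overlap for 69.2% of members and 61.6% of all genes. The size of the differences was ordinary: the median absolute log2 change was 0.29 in the members and 0.25 over all genes. For 53 of the 65 members (81.5%) the 95% interval of the change lay within 2-fold in either direction, as it did for 79% of all genes. These shares describe the set, whose members were not picked at random, and no test was made of them.

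**Figure D1:**
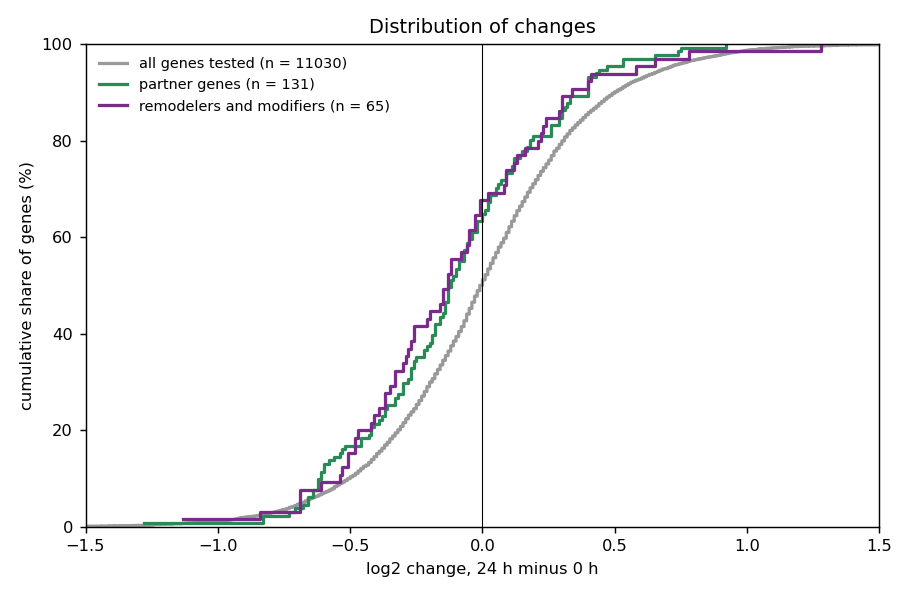
Cumulative share of genes (%, y axis) against the log2 change from 0 h to 24 h (x axis) for the 65 remodelers and modifiers, the 131 tested genes of their partner complexes and all 11030 genes tested. Both chromatin curves cross 0 at a higher share than all genes do, with 44 of 65 members and 84 of 131 partner genes below 0.

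**Figure D2:**
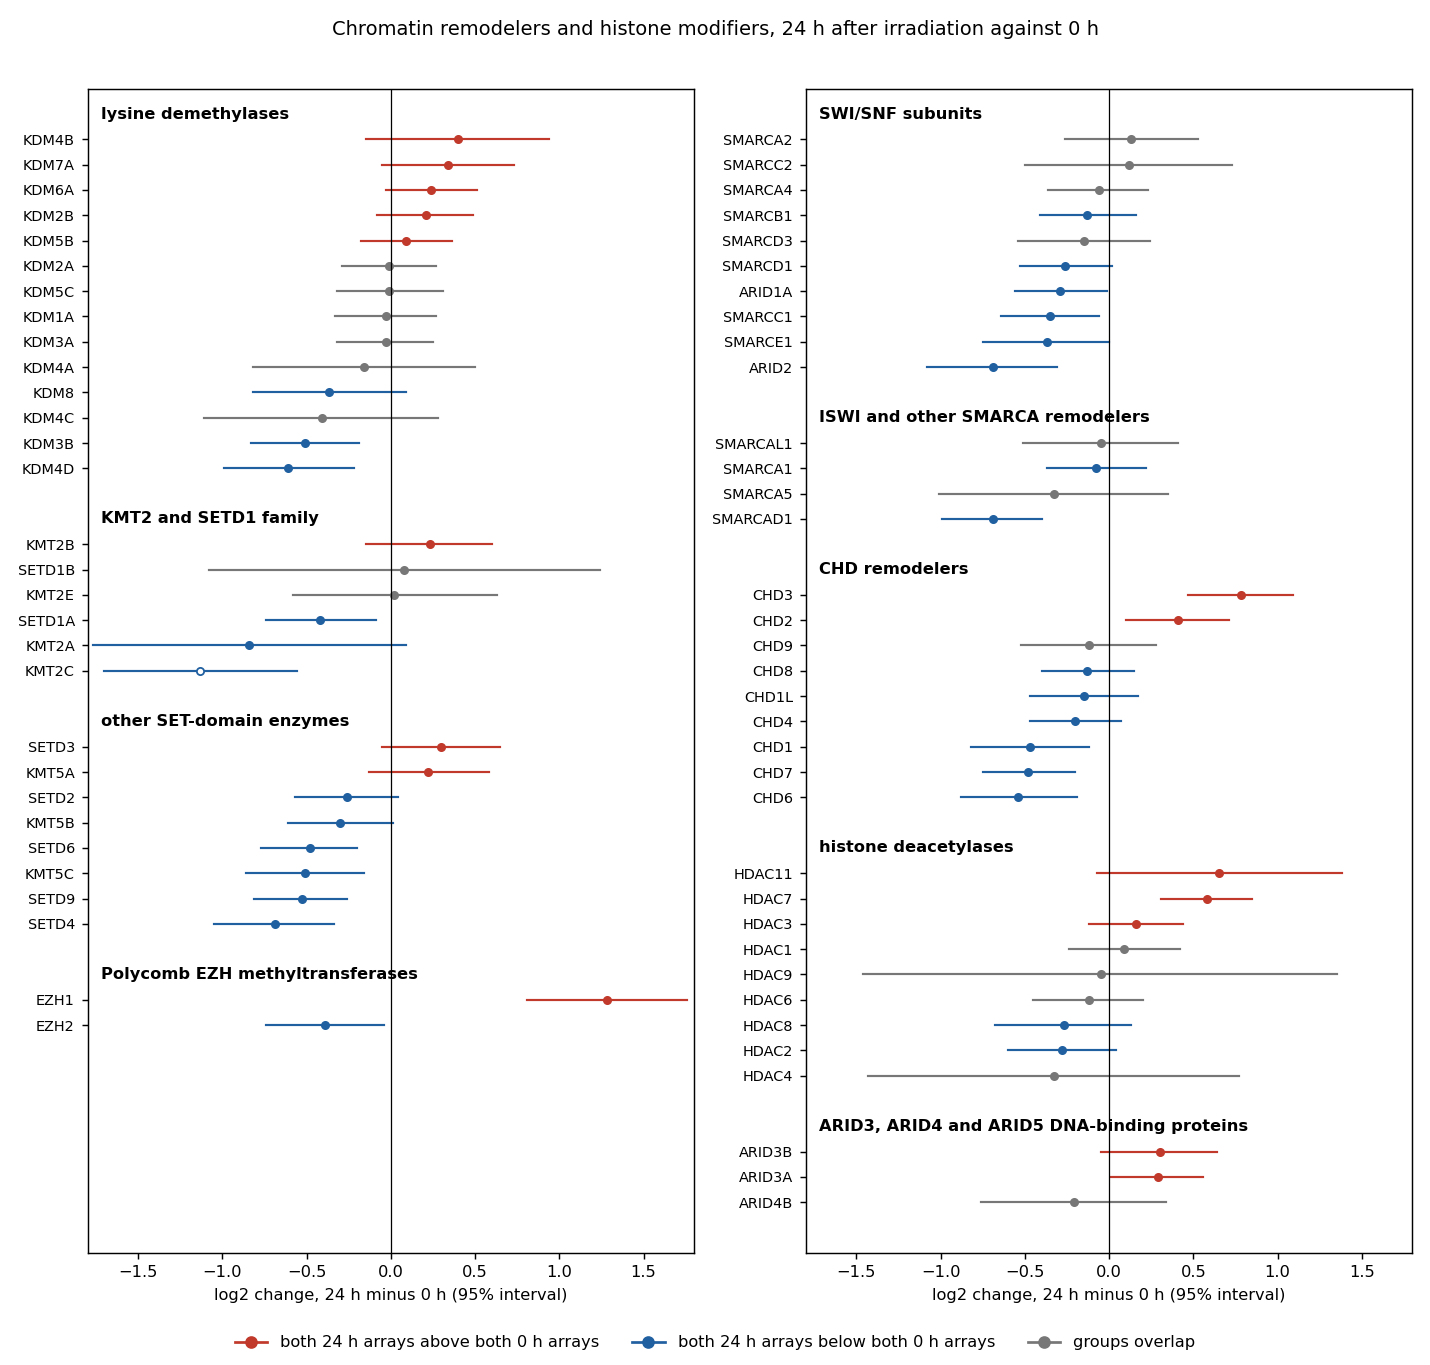
Log2 change from 0 h to 24 h (x axis) of each of the 65 tested members with its 95% interval from limma, grouped by family. Colour shows whether the 2 arrays at 24 h lay above or below the 2 arrays at 0 h or overlapped with them. EZH1 stands farthest to the right at 1.28. The open point is KMT2C, whose probe in the test was detected on neither 24 h array, so its place shows the fitted value. For that probe the array means gave only a bound, at least 1.57-fold lower, which leaves out sampling error.

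EZH1 and EZH2, the alternative catalytic subunits of Polycomb repressive complex PRC2, which methylates lysine 27 of histone H3 at silent developmental genes, read in opposite directions. EZH2 is the form that dividing cells use, while EZH1 is known for resting and differentiated cells. Because the paralogues differ in direction, the 250 bases before a start site listed by RefSeq are shown for each (GRCh38.p14, minus strand, the sole listed start of EZH1 at chr17:42745041-42745290 and the outer of 2 listed starts of EZH2 at chr7:148884292-148884541). Capitals mark matches, on either strand, to the E2F motif (TTTCCCGC, TTTCGCGC, TTTGCCGC or TTTGGCGC), the cell cycle homology region CHR (TTTGAA) or the CCAAT box (CCAAT).
EZH1: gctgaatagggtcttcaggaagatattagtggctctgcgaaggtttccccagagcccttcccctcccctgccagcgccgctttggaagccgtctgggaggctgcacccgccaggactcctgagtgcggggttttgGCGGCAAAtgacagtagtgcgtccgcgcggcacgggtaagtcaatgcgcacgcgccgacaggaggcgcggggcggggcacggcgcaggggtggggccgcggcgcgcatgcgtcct
EZH2: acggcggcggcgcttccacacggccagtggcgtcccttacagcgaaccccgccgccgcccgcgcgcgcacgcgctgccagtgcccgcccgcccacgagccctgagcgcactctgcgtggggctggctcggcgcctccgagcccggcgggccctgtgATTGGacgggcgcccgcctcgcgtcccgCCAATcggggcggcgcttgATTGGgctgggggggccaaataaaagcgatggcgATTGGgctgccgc

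The EZH1 window held 1 match to the E2F letters and the EZH2 window 4 CCAAT boxes, with no other match of the 3 motifs and no overlap between matches. Windows of the same length before all 35116 listed starts held the E2F letters in 2.79%, CHR in 13.3% and a CCAAT box in 32.0% of cases. Among the 13016 of these windows that belong to tested genes the shares were 4.09%, 9.03% and 33.2%. RefSeq listed 94 starts for 57 of the 65 tested members, and of those windows 1 held the E2F letters, 3 CHR and 29 (30.9%) a CCAAT box. A match describes these letters and shows no binding.

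EZH1 had normalized log2 signals of 5.48 and 5.16 at 0 h and 6.45 and 6.76 at 24 h. The groups did not overlap, and the gene was detected on 1 of the 2 arrays at 0 h and on both at 24 h. The log2 change of EZH1 was 1.28 ± 0.18 (SE), a 2.44-fold higher signal with a 95% interval of the log2 change from 0.81 to 1.76, and it missed the threshold narrowly (limma adjusted p = 0.0505). Its size depends on the background correction, since the 0 h signals lay near the lowest detected signals of 5.43 and 5.44: without the correction the log2 change was 0.43.

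EZH2 had log2 signals of 9.04 and 9.24 at 0 h and 8.67 and 8.84 at 24 h, so both later arrays lay below both earlier ones. The log2 change was -0.39 ± 0.13 (limma adjusted p = 0.141), a 1.31-fold lower signal. EZH2 was read by 3 detected probes, and the other two gave log2 changes of -0.34 and -0.07.

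The KMT2 and SETD1 proteins, most of which methylate lysine 4 of histone H3, had 3 of 6 tested members above 0 and 3 below, and 0 passed. KMT2C, the enhancer methyltransferase also called MLL3, had log2 signals of 6.20 and 6.09 at 0 h and 5.30 and 4.73 at 24 h. The probe that stood for it was detected on both 0 h arrays and on neither 24 h array, so its difference has only a bound. From the array means this probe read at least 1.57-fold lower (limma adjusted p = 0.0624), a bound that leaves out sampling error. The 95% interval of its fitted log2 change ran from -1.70 to -0.56. The other 5 of its 6 probes were not kept. Of these, a probe detected only on 24 h replicate 1 gave a log2 change of 0.02. The rest, detected on no array, ran from -0.31 to 0.05. RefSeq lists pseudogene copies of KMT2C whose transcripts a probe could share.

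KMT2A, or MLL1, which keeps HOX genes active, read 6.90 and 6.58 at 0 h and 6.38 and 5.42 at 24 h. Its lower 24 h array was not detected, and the wide gap within that group left a log2 change of -0.84 ± 0.35 (limma adjusted p = 0.194). SETD1A, a catalytic subunit of the COMPASS complex that trimethylates this lysine at promoters, read 9.24 and 9.05 at 0 h and 8.68 and 8.78 at 24 h (log2 change -0.42 ± 0.12, limma adjusted p = 0.111). Its paralogue SETD1B overlapped between the groups (0.08 ± 0.44), as did KMT2E (0.02 ± 0.23), which is not known to methylate that lysine, and KMT2B stood at 0.23 ± 0.14. KMT2D was not detected on any array.

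Of the other SET-domain enzymes, 6 of 8 tested members read below 0, beside 50.6% of all genes, with a median log2 change of -0.39. The groups did not overlap for any of the 8, beside 61.6% of all genes, and the family was not tested as a set. SETD4 read 8.16 and 8.42 at 0 h and 7.56 and 7.63 at 24 h, a log2 change of -0.69 ± 0.14 (limma adjusted p = 0.0643). SETD9 read 8.89 and 8.90 at 0 h and 8.40 and 8.32 at 24 h (-0.53 ± 0.10, limma adjusted p = 0.0646). In both genes the groups lay farther apart than the replicates, yet neither passed over all genes.

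KMT5C, which together with KMT5B di- and trimethylates histone H4 and marks heterochromatin, read 6.34 and 6.55 at 0 h and 5.86 and 6.02 at 24 h (-0.51 ± 0.13, limma adjusted p = 0.0905). KMT5B stood at -0.30 ± 0.12, with its second probe at -0.04, and KMT5A, which places the first methyl group on that lysine and is tied to the cell cycle, at 0.22 ± 0.13. SETD6, a methyltransferase of the NF-kB subunit RELA, read 8.67 and 8.64 at 0 h and 8.23 and 8.11 at 24 h (-0.48 ± 0.11, limma adjusted p = 0.0732). SETD2, which trimethylates histone H3 along transcribed genes, stood at -0.26 ± 0.12. SETD3, an actin histidine methyltransferase, read higher on both its probes, at 0.30 ± 0.13 for the brighter and 0.64 for the dimmer, and SETD7 was not detected on any array.

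**Figure D3:**
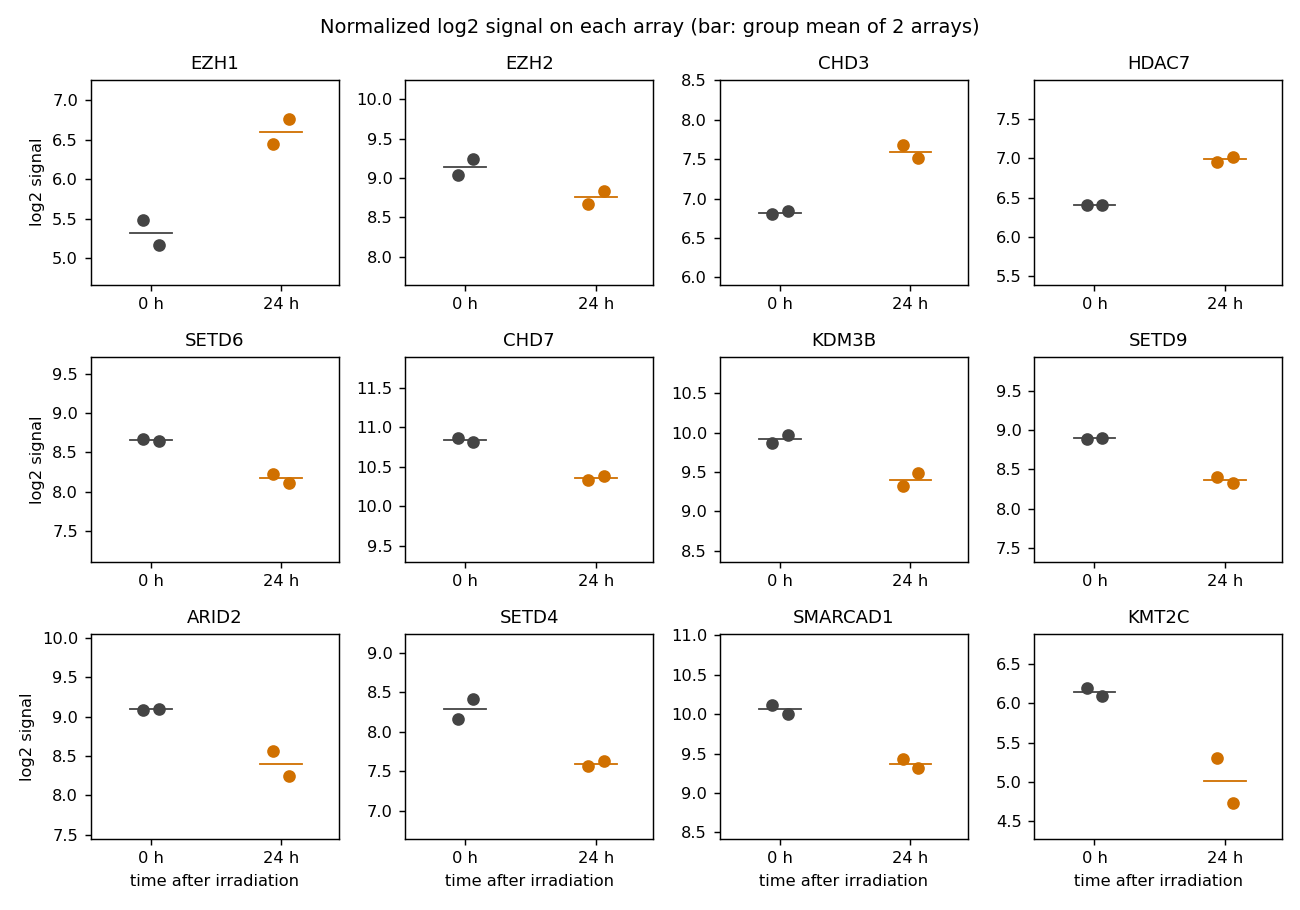
Normalized log2 signal (y axis, each panel spanning the same range of log2 units) on the 2 arrays at 0 h and the 2 at 24 h (x axis) for the 11 members with an unadjusted p under 0.01, plus EZH2. Points are arrays and bars are group means. Of the 11, 3 read higher at 24 h (EZH1, CHD3 and HDAC7) and 8 lower, and none passed an adjusted p of 0.05. The share of all genes at the 0.01 cutoff is not given, so these counts do not set the members apart.

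The lysine demethylases went both ways, with 5 of 14 tested members above 0, 9 below, a range of log2 changes from -0.61 to 0.40 and a median of -0.02. The groups did not overlap for 8 of the 14, 5 higher and 3 lower, beside 61.6% of all genes. KDM1A, or LSD1, the flavin-dependent demethylase of the CoREST complex, read 12.01 and 12.02 at 0 h and 11.91 and 12.07 at 24 h. Its groups overlapped and its log2 change of -0.03 ± 0.11 had a 95% interval from -0.33 to 0.27. KDM2A (-0.01 ± 0.11), KDM3A (-0.03 ± 0.11) and KDM5C (-0.01 ± 0.12) likewise overlapped between the groups, with intervals within -0.32 and 0.31.

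At an unadjusted p under 0.05 there were 2 of the 14 tested demethylases, both lower (14.3%, beside 15.3% of all genes as lower and 30.3% in all). These were KDM4D and KDM3B, both demethylases of lysine 9 of histone H3, the mark of silent chromatin. KDM3B read 9.87 and 9.97 at 0 h and 9.32 and 9.49 at 24 h, a log2 change of -0.51 ± 0.12 (limma adjusted p = 0.0779). KDM4D read 6.73 and 6.47 at 0 h and 6.08 and 5.91 at 24 h (-0.61 ± 0.15, limma adjusted p = 0.08). The related KDM4C overlapped between the groups (-0.41 ± 0.26) and was detected on 1 of the 2 arrays at 24 h, while KDM4A stood at -0.16 ± 0.25 and KDM4B, which has a second probe that was not kept, at 0.40 ± 0.20. KDM4 enzymes therefore gave values on both sides of 0.

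KDM6A, or UTX, which removes the methyl mark that EZH1 and EZH2 write, read 8.86 and 8.89 at 0 h and 9.09 and 9.14 at 24 h (0.24 ± 0.10, limma adjusted p = 0.201). Its paralogue KDM6B was not detected on any array. KDM2B, which brings Polycomb complex PRC1 to unmethylated CpG islands, stood at 0.21 ± 0.11 on its brighter probe. A dimmer KDM2B probe, detected on the 24 h arrays only and so favoured by the filter to read higher there, gave 0.64. KDM5B, a demethylase of lysine 4 of histone H3, stood at 0.09 ± 0.10, KDM7A at 0.34 ± 0.15 and KDM8 at -0.37 ± 0.17. KDM1B was not detected on any array.

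Histone deacetylases had 4 of 9 tested members above 0, 5 below and a median log2 change of -0.05. HDAC1 and HDAC2, the catalytic pair of the NuRD, Sin3 and CoREST repressor complexes, read above and below 0, and neither passed. HDAC1 read 12.35 and 12.46 at 0 h and 12.40 and 12.59 at 24 h, with overlapping groups (0.09 ± 0.12, limma adjusted p = 0.679). HDAC2 read 12.73 and 12.75 at 0 h and 12.57 and 12.36 at 24 h (-0.28 ± 0.12, limma adjusted p = 0.206). A dim second HDAC2 probe, detected on the 0 h arrays only and so favoured by the filter to read higher there, gave -0.57. HDAC1 turned to -0.01 under 1 of 13 other ways of processing the data. HDAC3, the enzyme of the NCoR and SMRT corepressors, stood at 0.16 ± 0.11.

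The class IIa enzyme HDAC7, a signal-dependent repressor that shuttles between nucleus and cytoplasm, read 6.41 and 6.40 at 0 h and 6.95 and 7.02 at 24 h. Its replicates lay within 0.1 of each other and the groups stood clearly apart, about 1.5-fold higher (log2 change 0.58 ± 0.10, limma adjusted p = 0.0579). Only 1 of the 3 HDAC7 probes was kept. Of the rest, a probe detected on 1 array gave 0.26 and a probe detected on no array gave 0.08. The class IV enzyme HDAC11 read 5.66 and 6.29 at 0 h and 6.41 and 6.85 at 24 h, so its replicates were spread nearly as far as its groups (0.65 ± 0.27, limma adjusted p = 0.194). HDAC4, also of class IIa, overlapped between the groups (-0.33 ± 0.42) and turned to 0.14 without 0 h replicate 1 and 0.06 without 24 h replicate 2. The groups of HDAC9 overlapped too (-0.05 ± 0.53), with 0 h arrays at 5.39 and 6.96. The tubulin deacetylase HDAC6 stood at -0.12 ± 0.12 and HDAC8 at -0.27 ± 0.15, and HDAC5 was detected on 1 array only and was not tested.

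In SWI/SNF, the BAF and PBAF remodelers that open enhancers and promoters, 8 of 10 tested subunits read below 0, with a median log2 change of -0.20. The ATPase SMARCA4, or BRG1, read 12.32 and 12.47 at 0 h and 12.35 and 12.32 at 24 h. Its groups overlapped, and the interval of its log2 change ran from -0.36 to 0.23 around -0.06. Its paralogue SMARCA2, or BRM, overlapped as well (0.13 ± 0.15).

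Among the other subunits ARID2, which defines PBAF, stood out, with 9.09 and 9.10 at 0 h and 8.56 and 8.25 at 24 h. The log2 change of ARID2 was -0.69 ± 0.14 (limma adjusted p = 0.0683), a 1.62-fold lower signal, and its second probe gave -0.40. ARID1A, the BAF counterpart, read 11.38 and 11.39 at 0 h and 11.14 and 11.06 at 24 h (-0.29 ± 0.10, limma adjusted p = 0.154), and ARID1B was not detected on any array.

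SMARCC1, or BAF155, the scaffold that mouse embryonic stem cells favour over SMARCC2, read 12.18 and 12.05 at 0 h and 11.77 on both 24 h arrays (-0.35 ± 0.11, limma adjusted p = 0.12). SMARCC2 overlapped between the groups (0.12 ± 0.23) and turned to a negative sign under 4 of 13 other ways of processing. SMARCE1 read 10.65 and 10.56 at 0 h and 10.38 and 10.09 at 24 h (-0.37 ± 0.14, limma adjusted p = 0.168). SMARCD1 stood at -0.26 ± 0.10, SMARCB1 at -0.13 ± 0.11 and SMARCD3 at -0.15 ± 0.15.

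Outside SWI/SNF, the Snf2-like ATPase SMARCAD1, which helps restore heterochromatin behind the replication fork and supports resection of broken DNA ends, came closest of all members on the lower side. SMARCAD1 read 10.12 and 10.01 at 0 h and 9.43 and 9.32 at 24 h. The groups lay several times farther apart than the replicates, at a log2 change of -0.69 ± 0.11 (limma adjusted p = 0.0536) with a 95% interval from -0.99 to -0.40. The ISWI ATPases SMARCA5 (-0.33 ± 0.26) and SMARCA1 (-0.08 ± 0.11) and the fork-repair helicase SMARCAL1 (-0.05 ± 0.17) also read below 0, with limma adjusted p of 0.447, 0.684 and 0.874. The dimmer probe of SMARCA1 gave -0.59.

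Of 9 tested CHD remodelers, 7 read below 0 and 2 above, with a median log2 change of -0.15. CHD3 and CHD4, the interchangeable ATPases of NuRD, differed in sign. CHD3 read 6.80 and 6.84 at 0 h and 7.68 and 7.51 at 24 h, a 1.71-fold higher signal with non-overlapping groups (log2 change 0.78 ± 0.12, limma adjusted p = 0.0516). Its second probe gave 0.82 but was detected on the 24 h arrays only. The filter thus favoured a higher reading at 24 h, and that probe adds no separate support. CHD4 read 11.08 and 11.09 at 0 h and 10.85 and 10.91 at 24 h (-0.20 ± 0.10, limma adjusted p = 0.263), and its second probe gave 0.05.

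CHD7, a remodeler of enhancers mutated in CHARGE syndrome, read 10.86 and 10.81 at 0 h and 10.33 and 10.38 at 24 h (-0.48 ± 0.10, limma adjusted p = 0.0711). CHD6 read 7.84 and 7.87 at 0 h and 7.44 and 7.20 at 24 h (-0.54 ± 0.13, limma adjusted p = 0.0818), with -0.40 on its second probe. CHD1, which in mouse embryonic stem cells keeps chromatin open, stood at -0.47 ± 0.13 (limma adjusted p = 0.101). CHD1L, a remodeler activated by poly-ADP-ribose at DNA breaks, stood at -0.15 ± 0.12, CHD8 at -0.13 ± 0.10 and CHD9 at -0.12 ± 0.15. CHD2 read 5.58 on both 0 h arrays and 6.07 and 5.90 at 24 h (0.41 ± 0.12, limma adjusted p = 0.104), close to the lowest detected signals. CHD5 was detected on 1 array and was not tested.

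The ARID proteins outside SWI/SNF gave 3 tested members. The transcription factors ARID3A and ARID3B both read higher at 24 h: ARID3A read 10.22 and 10.16 at 0 h and 10.47 and 10.48 at 24 h (0.29 ± 0.10, limma adjusted p = 0.152). ARID3B read 11.74 and 11.78 at 0 h and 11.94 and 12.18 at 24 h (0.30 ± 0.13, limma adjusted p = 0.205). ARID4B, a partner of the Sin3 deacetylase complex, overlapped between the groups (-0.21 ± 0.21). ARID3C, ARID5A and ARID5B were not detected on any array, nor was the antisense transcript KMT2E-AS1, and a Y-linked member is given without values. With KDM1B, KDM6B, KMT2D, SETD7, ARID1B, HDAC5 and CHD5 these make up the 12 untested members, whose probes may miss the transcript.

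More than 1 probe was kept for 18 genes, read by 39 probes. In 14 of them no probes had opposite signs, in 4 the probes fell on both sides of 0, and in 4 they spread by more than 0.5 on the log2 scale. ARID4B ranged from -0.62 to 0.20, KMT2E from -0.79 to 0.02 and SMARCC2 from -0.64 to 0.12. For KMT2E the dimmer probes lay at -0.79 and -0.62, beside 0.02 for the brighter probe that stood for the gene. Both dimmer KMT2E probes and the SMARCC2 probe at -0.64 were detected on the 0 h arrays only. A probe kept through 1 group alone is favoured by the filter to read higher in that group. SMARCA1 made the fourth wide range and CHD4 the fourth pair of signs. Probes of a gene can read different transcripts, which these values do not separate.

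**Figure D4:**
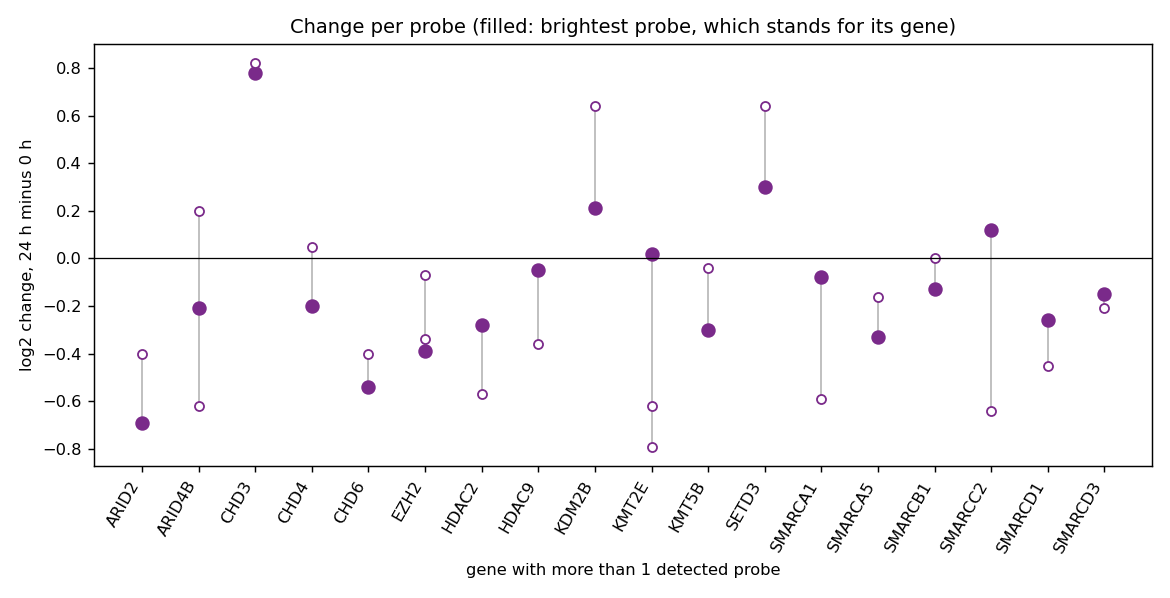
Log2 change from 0 h to 24 h (y axis) of each kept probe of the 18 members with more than 1 kept probe (x axis). Filled points are the brightest probe, which stood for its gene in the test. CHD3 probes lie at 0.78 and 0.82, the latter from a probe detected on the 24 h arrays only. Those of ARID4B, CHD4, KMT2E and SMARCC2 fall on both sides of 0.

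Genes of the complexes around these members gave a similar picture. Of 160 listed partner genes 131 were tested, 84 read below 0 and 47 above, the median log2 change was -0.12, and 0 passed, beside 2.28% of all genes (limma, adjusted p of 0.05). At an unadjusted p under 0.05, 26 were lower (19.8%, beside 15.3% of all genes) and 8 higher (6.11%, beside 15%). Partners of the ISWI and INO80 families lay below 0 in 20 of 24 cases (median -0.22) and COMPASS partners in 10 of 13 (median -0.26). The lists were chosen with earlier results of these data known, and no test was made of them as sets.

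Acetyltransferases, which oppose the deacetylases, read below 0 in 7 of 11 cases. EP300, the enhancer coactivator p300, read 7.44 and 7.22 at 0 h and 6.56 and 5.55 at 24 h (-1.28 ± 0.36, limma adjusted p = 0.101), with a gap of about a log2 unit between its 24 h arrays. KAT6A, or MOZ, read 9.29 and 8.93 at 0 h and 8.42 and 8.15 at 24 h (-0.83 ± 0.18, limma adjusted p = 0.0719). The EP300 paralogue CREBBP, named after its values were seen, stood at -0.64 ± 0.14 (limma adjusted p = 0.0718).

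In SWI/SNF 10 of 16 partner subunits read below 0. BCL7A read 6.25 and 6.07 at 0 h and, without detection on either array, 5.38 and 5.27 at 24 h. Its array means gave a bound of at least 1.59-fold lower (limma adjusted p = 0.051), which leaves out sampling error. The 95% interval of its fitted log2 change ran from -1.15 to -0.51. BICRAL stood at -0.62 ± 0.15. In the COMPASS list the core subunit RBBP5 stood at -0.71 ± 0.15 and NCOA6 at -0.68 ± 0.15. In the ISWI and INO80 list YEATS4 stood at -0.62 ± 0.14 and BAZ2B at -0.61 ± 0.14. Limma adjusted p for these last 5 genes was 0.0684 to 0.0842.

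In NuRD, 5 of 9 partners read above 0 and 4 below. The methyl-CpG binder MBD2 read 6.43 and 6.27 at 0 h and 7.03 and 7.17 at 24 h (0.75 ± 0.12, limma adjusted p = 0.0537), while the histone chaperone RBBP7 stood at -0.38 ± 0.22. Among 19 Polycomb partners, 8 above and 11 below 0, the PRC1 chromodomain protein CBX7 read 6.63 and 6.74 at 0 h and 7.41 and 7.81 at 24 h (0.92 ± 0.17, limma adjusted p = 0.0613). ASXL2, of the Polycomb deubiquitinase, stood at -0.52 ± 0.22. EZH1 and CBX7 were thus the Polycomb genes with the widest differences on the higher side, and EZH2 stood on the lower side.

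Sin3, CoREST and NCoR partners read above 0 in 6 of 13 cases, with SUDS3 at -0.73 ± 0.34 and SAP18 at -0.66 ± 0.16, both of Sin3. Other histone methyltransferases did so in 6 of 14, with NSD1, which dimethylates lysine 36 of histone H3, at -0.66 ± 0.18 and DOT1L, detected on 1 array of each group, at 0.65 ± 0.86. Other demethylases did so in 2 of 6, with PHF2 at -0.53 ± 0.22 and RIOX2 at 0.40 ± 0.17. Of 6 sirtuins, 3 read above 0, with the mitochondrial SIRT4 at 0.74 ± 0.15 (limma adjusted p = 0.0656) and SIRT6, which acts on chromatin at telomeres and breaks, at -0.64 ± 0.54. Under 1 other way of processing each, the sign turned for DOT1L (range -0.49 to 1.8), RIOX2 (-0.19 to 0.65) and SIRT6 (-1.33 to 0.05).

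The members are long genes, with a median span of 70.6 kb in the RefSeq annotation beside 28.4 kb for all tested genes with a length. Across all 11027 such genes, Spearman's rho between span and log2 change was -0.13, and across the 65 members it was -0.04. Genes are not independent replicates and all share the same 4 arrays, so both are descriptions.

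How many members passed depended on how the data were processed. With a prior in limma that follows signal level and resists outliers, 22 of 65 members passed (33.8%), beside 22.9% of all genes. Without background correction 15 did (23.1%), beside 21%, and with detection p under 0.01 required on all 4 arrays 12 of 53 did (22.6%), also beside 21%. With arrays scaled to their 75th percentile rather than quantile normalized there were 9 members (13.8%), beside 6.54%, with the authors' deposited log2 values 2 (3.08%), beside 3.52%, and with the mean of a gene's probes 1 (1.54%), beside 3.05%. Without background correction dim members kept their sign with smaller log2 changes, 0.40 for CHD3, 0.25 for HDAC7, 0.23 for HDAC11, -0.38 for KMT2C, -0.30 for KMT2A, -0.22 for KDM4D and -0.18 for KMT5C, of which CHD3 and KMT2C passed. The sign turned under 1 of the 13 alternatives for KDM1A, SMARCA4, SMARCA2 and ARID4B, none of which passed. CHD3 and EZH1 each passed as higher in 5 of the 6 settings above, and SMARCAD1, CHD7, KDM3B and SETD9 as lower in 4.

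**Figure D5:**
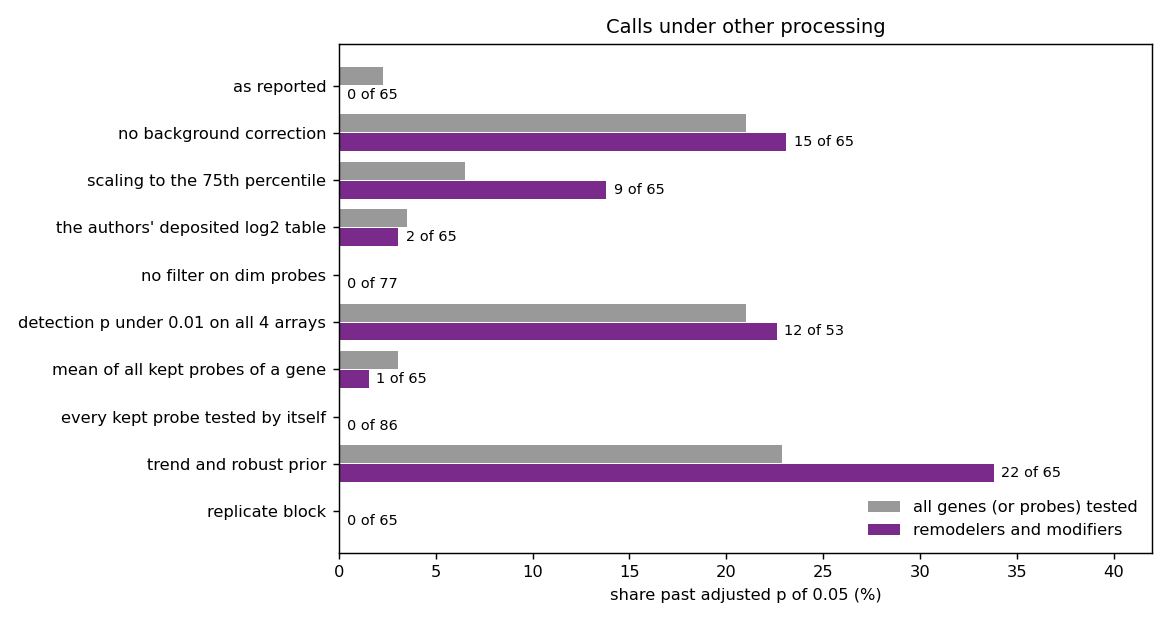
Share of tested genes past an adjusted p of 0.05 (x axis, %) under each way of processing the data (y axis), for all genes (or probes) tested and for the remodelers and modifiers, with the number of members that passed written beside each bar. The members' share runs from 0 as reported to 22 of 65 with the trend and robust prior.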

How the data were processed

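The 4 arrays were Illumina bead arrays of H9 RNA. The deposited non-normalized values are mean bead intensities on a linear scale, with a detection p-value per probe, per the file headers. The authors' table of log2 values holds 34466 of the 47217 probes, and limma is named per the submitters' processing notes. Its columns differed from the neqc values of the same arrays by at most 0.0563, so it was taken as background-corrected and quantile-normalized log2 values without centring of genes.

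For this report neqc of limma 3.58.1 (R 4.3.3, offset 16) corrected the background and quantile-normalized the arrays. Of 26358 probes with a single symbol in the platform annotation, 26325 matched RefSeq (GRCh38.p14) by Entrez identifier, and 0 symbols changed. The brightest kept probe stood for each of 11030 genes, fitted with lmFit and eBayes, 24 h minus 0 h, without a replicate block. Changes carry the standard error (SE) of the fit. A gene not detected in a group has a bound, its bright mean over, per dim array, the higher of its own and the lowest detected signal. Such a bound describes the array means and carries no sampling error. The number of arrays limits the precision. The code was tested on simulated data.

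The members and lists were chosen with earlier results of these data known. Named members were, per family, the 3 with the largest absolute change and the brightest, plus 7 paralogue pairs, and from each partner list the 2 with the largest absolute change, with any that passed. Other members, CREBBP included, were named after their values were seen.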

Additional observations from a re-analysis of the deposited data

How the results depend on the processing

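Of 65 members 0 passed in the fit reported, where 251 of all genes and 0 partner genes did. Leaving out an array leaves a single array in 1 group, so no passing genes are counted from those fits. Members passing numbered 15 without background correction, 9 with scaling to the 75th percentile, 2 in the authors' deposited log2 table, 12 with detection p under 0.01 on all 4 arrays, 1 with the mean of probes and 22 with the trend and robust prior. In the same order, all genes passing numbered 2319, 721, 388, 1844, 336 and 2522, and partner genes 32, 5, 1, 24, 1 and 37. The stricter filter tested fewer genes; for the others the cause was not tested. All genes passing numbered 0 with no filter on dim probes and 0 with every probe tested by itself. With 75th-percentile scaling, 359 genes passed as higher and 362 as lower, beside 149 and 102.

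The members' median log2 change of -0.13 was -0.23 with that scaling (-0.04 over all genes), and ran from -0.17 to -0.09 with an array left out. Members with an unadjusted p under 0.05, 21 in the fit reported, numbered 13 to 20 with an array left out, 13 of them without 0 h replicate 1. The fits with an array left out have a single array in 1 group, and their share of all genes is not given. Their counts therefore neither set the members apart nor show a weaker difference. The replicate block gave 0 calls for members, partner genes and all genes. At an unadjusted p under 0.05 it gave 30 members (8 higher, 22 lower). The share of all genes in that fit is not given, so this count does not set the members apart. Deviations of same-numbered arrays correlated at 0.154 across all genes and 0.328 across the members, and 2 pairs do not show that the numbers pair the arrays. Slide as a block could not be fitted, since all arrays carry 1 slide number. Replicates spread with a median SD of 0.332 among the dimmest 10% of genes and 0.073 among the brightest 10%, so dim members such as KMT2C and CHD2 are the less certain.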
